A study of Mus musculus with 6 samples.

Results

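Il33 and Il1rl1, the genes for the cytokine IL-33 and for its receptor ST2, were followed across the cell types of the lower abdominal muscle (LAM) in wild-type (WT) and Aromhum mice. These 2 genes of the 16494 in the deposited table were taken by name, as a ligand and its receptor. Single cells from 6 male FVB/N mice aged 9 to 10 weeks were sequenced with 10x Genomics 3′ chemistry, which counts unique molecular identifiers (UMIs) per gene and cell. The groups were 3 WT mice (WT1, WT2 and WT3) and 3 Aromhum mice with scrotal hernia (Aromhum1, Aromhum2 and Aromhum3). Aromhum mice carry the human aromatase gene under its own tissue-specific promoters, and the WT mice were littermates without it. Tissue of 1 WT mouse and 1 Aromhum littermate was processed on each of 3 dates, and the sources used here do not tie a date to a mouse number.

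IL-33 is a member of the IL-1 family that is stored in the nucleus of stromal and barrier cells and is released when cells are damaged. It binds ST2, which pairs with the accessory protein encoded by Il1rap and signals through the adaptor encoded by Myd88. Regulatory T cells, type 2 innate lymphoid cells and mast cells are the receptor cells best known in muscle, and a soluble form of ST2, made from the same gene, acts as a decoy.

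In the mm10 gene models of GENCODE, Il1rl1 lies on the plus strand at chr1:40429570-40465415 with 5 transcripts, and Il33 on the plus strand at chr19:29925114-29960718 with 5 transcripts. Il1rl1-202, the transcript with 11 exons, runs to the end of the gene, and Il1rl1-203, with 8 exons, ends at 40448148. Gene-level UMIs do not separate these forms or the start sites. The 250 bases before each start site listed by RefSeq for GRCm38.p6 are shown because the RNA of both genes was measured from these starts together. Capitals mark GATAA or TTATC, the core of a GATA factor motif, and GGTCA or TGACC, the core repeat of an estrogen response element. The windows are chr1:40429320-40429569 and chr1:40439379-40439628 for Il1rl1 and chr19:29924863-29925112 and chr19:29945540-29945789 for Il33.
Il1rl1 first start: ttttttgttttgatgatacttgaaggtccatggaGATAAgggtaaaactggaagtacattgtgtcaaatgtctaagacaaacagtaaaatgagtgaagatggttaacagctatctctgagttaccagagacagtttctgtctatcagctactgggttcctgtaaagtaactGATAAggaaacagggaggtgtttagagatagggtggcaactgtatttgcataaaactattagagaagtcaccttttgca
Il1rl1 second start: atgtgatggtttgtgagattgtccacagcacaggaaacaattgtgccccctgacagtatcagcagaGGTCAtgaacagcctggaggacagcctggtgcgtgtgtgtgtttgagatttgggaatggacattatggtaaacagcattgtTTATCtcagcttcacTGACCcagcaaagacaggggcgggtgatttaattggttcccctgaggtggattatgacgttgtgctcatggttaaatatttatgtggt
Il33 first start: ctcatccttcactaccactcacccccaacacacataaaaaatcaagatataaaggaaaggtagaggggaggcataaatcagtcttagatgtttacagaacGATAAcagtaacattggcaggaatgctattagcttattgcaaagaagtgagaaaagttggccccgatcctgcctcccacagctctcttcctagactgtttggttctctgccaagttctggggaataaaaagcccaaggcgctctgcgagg
Il33 second start: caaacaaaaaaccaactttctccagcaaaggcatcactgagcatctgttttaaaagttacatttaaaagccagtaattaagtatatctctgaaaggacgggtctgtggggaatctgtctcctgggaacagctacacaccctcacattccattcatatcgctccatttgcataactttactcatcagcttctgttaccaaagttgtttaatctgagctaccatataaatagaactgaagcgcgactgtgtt
The GATA core was in 3 of these 4 windows and in 22.6% of 32851 windows of the same length before RefSeq start sites. The estrogen element core was in 1 of 4, at the second Il1rl1 start, and in 35.2% of all windows. TGANTCA, the AP-1 motif, was in 0 of 4 and in 6.75% of all windows. Both strands were searched, and a match is a description of the letters only.

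After a minimum of 1000 UMIs and 200 genes, 59227 of 63647 barcodes were kept, 7505 to 9583 per WT mouse and 8446 to 12999 per Aromhum mouse. Median UMIs per cell ran from 5621 to 6412 in WT and from 7057 to 9360.5 in Aromhum mice. CYP19A1, the human transgene, had 0 UMIs in each WT mouse and 770, 797 and 787 in the Aromhum mice. Aromhum3 carried the transgene at a count like that of its group but stood apart from Aromhum1 and Aromhum2 for both genes studied, so that some results are also given without it. That choice rests on the values of the genes themselves, and the range over the 6 fits that each leave out 1 mouse is given beside it. In all, 471 barcode sequences occurred in more than 1 mouse, which covers 943 barcodes. Cells were clustered without Il33 and Il1rl1, and a cluster was named for the cell type it was most like from marker genes. Pdgfra was seen in 74.2% and Dcn in 99.98% of the fibroblast-like cells. Levels are given as CPM, in which the total UMIs of the cells considered in a mouse set the scale, and fewer cells of a type cannot be told apart from less RNA per cell in sums over all cells.

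Il33 had 59318 UMIs in 12194 cells, and Il1rl1 had 25292 UMIs in 4724 cells. Fibroblast-like cells, the 21778 cells of clusters named from fibroblast markers, held 84.7% of the Il33 UMIs and 89.6% of the Il1rl1 UMIs. Over all cells of a mouse, Il33 was at 83.2, 42.5 and 45.2 CPM in WT1, WT2 and WT3 and at 182, 191 and 73.6 CPM in Aromhum1, Aromhum2 and Aromhum3. Aromhum3 lay below WT1, so that the groups overlapped. The difference was a log2 fold change of 1.42 (SE 0.47) and did not pass the edgeR quasi-likelihood test (Benjamini-Hochberg adjusted p = 0.0726). Il1rl1 was at 10.8, 2.75 and 1.22 CPM in the WT mice and at 98.6, 111 and 12.6 CPM in the Aromhum mice. Every Aromhum mouse was above every WT mouse, with Aromhum3 close to WT1. The log2 fold change was 3.94 (SE 1.14) with an edgeR adjusted p of 0.0525. In this comparison 23.5% of 15334 genes tested were called. Without Aromhum3 the edgeR adjusted p was 0.0198 for Il33 and 0.0221 for Il1rl1, the lowest of 6 such fits. With each mouse left out in turn it reached 0.201 for Il33 and 0.155 for Il1rl1.

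**Figure D1:**
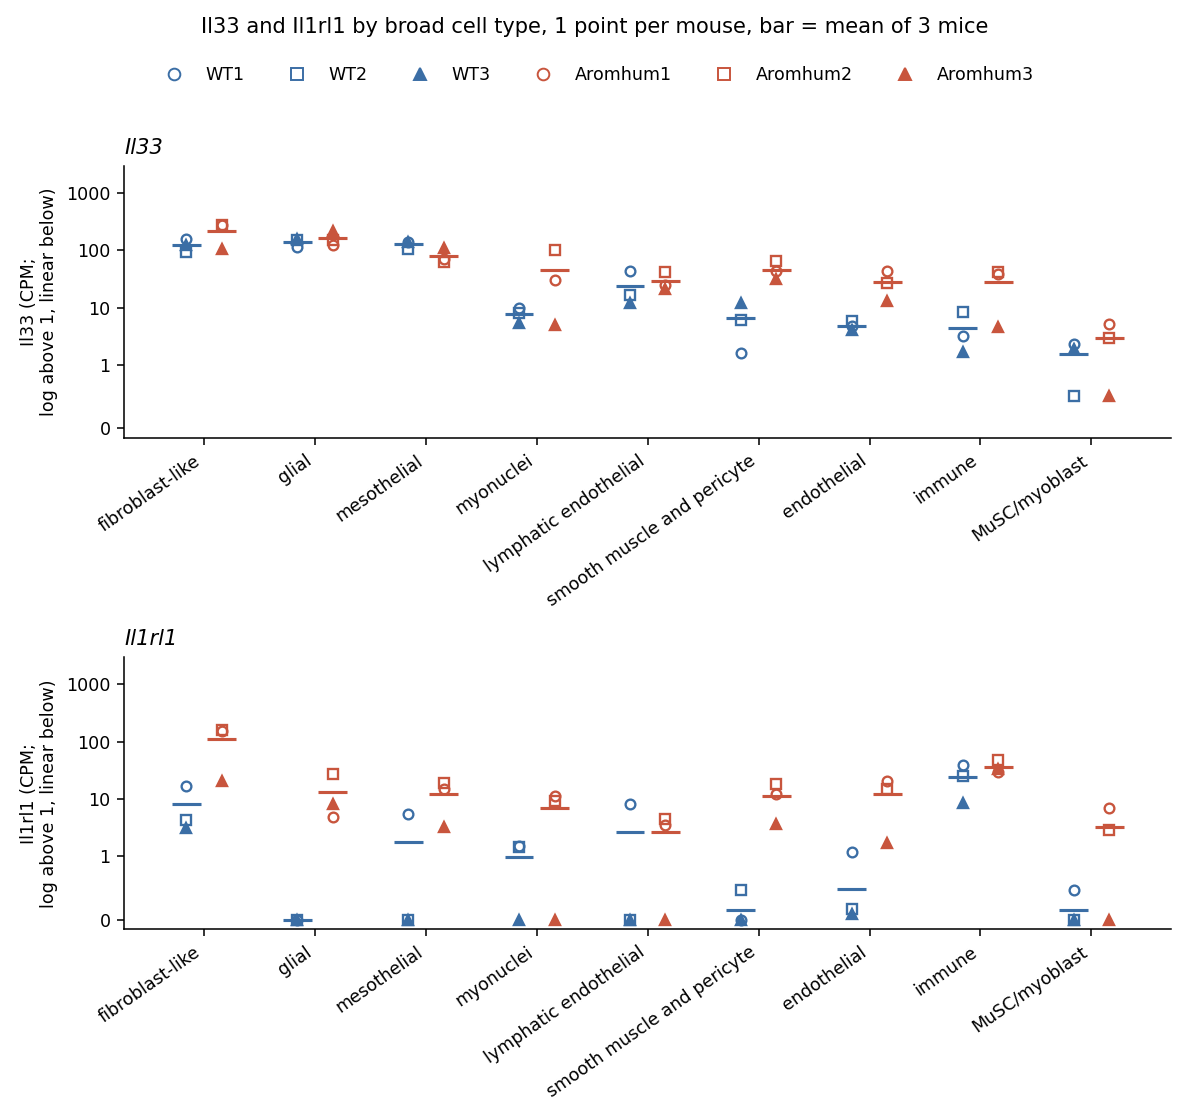
Il33 (upper panel) and Il1rl1 (lower panel) in CPM for 9 broad cell types, with 1 point per mouse and a bar at the mean of 3 mice per genotype. The axis is logarithmic above 1 CPM and linear below, and the means of fibroblast-like, glial-like and mesothelial-like cells are highest for Il33, the glial-like one mostly from 1 cluster of 341 cells, fibroblast-like and immune-like cells for Il1rl1.

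Across broad cell types the mean Il33 level of the 6 mice was 171 CPM in fibroblast-like, 153 CPM in glial-like and 105 CPM in mesothelial-like cells. The other types were at 26.8 CPM or lower, down to 2.23 CPM in muscle stem cells and myoblasts. The glial-like level was not that of most glial-like cells. Of their 1907 Il33 UMIs, 1790 lay in a cluster of 341 of the 2271 cells, which also had summed fibroblast markers at 24883 to 31788 CPM, and the part of those markers was not tested. No neighbouring pair in this order passed an exact sign-flip test over mice (adjusted p of 0.25 or higher). The lowest p with 6 mice is 0.03125, and a single pair at that p has an adjusted p of 0.25. The test could thus hardly pass a pair, and no conclusion is drawn from it. For Il1rl1 the mean was 59.9 CPM in fibroblast-like, 30.6 CPM in immune-like and 7.02 CPM in mesothelial-like cells. Immune-like cells were above mesothelial-like cells in 6 of 6 mice (exact sign-flip p = 0.03125, adjusted p = 0.25). Fibroblast-like cells were above immune-like cells in only 2 of 6 mice, Aromhum1 and Aromhum2. In the WT mice, Il1rl1 in immune-like cells was at 40.0, 24.9 and 8.55 CPM against 16.7, 4.34 and 3.10 CPM in fibroblast-like cells.

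Within fibroblast-like cells, Il33 was at 156, 94.2 and 122 CPM in the WT mice and at 277, 272 and 106 CPM in the Aromhum mice. Aromhum1 and Aromhum2 were above all WT mice, and Aromhum3 lay within the WT range. The log2 fold change was 0.81 (SE 0.40, edgeR adjusted p = 0.203), and it was 1.17 without Aromhum3 (adjusted p = 0.0111, against up to 0.474 with another mouse left out). Without Mmp3-hi cells, a group described further on, it was 0.48 (adjusted p = 0.314). It was 0.31 with equal weight of the 6 subtypes that had at least 10 cells in every mouse (limma adjusted p = 0.669). These also leave out Mmp3-hi and Esr1-hi cells. They are FAP-like, Dmkn-hi, tenocyte-like and tenocyte progenitor-like cells, the Sfrp5+Lypd2+Itgb4 cluster and a cluster led by Fabp4, Cldn5 and Gpihbp1. In tenocyte-like cells mean Il33 was 24.8 CPM in WT and 11.3 CPM in Aromhum mice, the latter from 3, 4 and 13 UMIs. In the other subtypes the mean was higher in Aromhum mice. The part of each subtype was not tested. Within the limits that the study set on cells, at most 2500 genes and 5% mitochondrial UMIs, the log2 fold change was 1.499 (adjusted p = 0.161). Il33 was then at 180, 88.5 and 83.7 CPM in the WT mice and at 396, 470 and 177 CPM in the Aromhum mice, with Aromhum3 just below WT1. Il1rl1 was at 16.7, 4.34 and 3.10 CPM in the WT mice and at 152, 163 and 20.5 CPM in the Aromhum mice. With all cells kept the groups did not overlap, and Aromhum1 and Aromhum2 were far above Aromhum3. Il1rl1 rose by a log2 fold change of 3.73 (SE 0.95, edgeR adjusted p = 0.0456), in a comparison where 13.5% of 13919 genes were called. The call was lost when any of the 5 mice other than Aromhum3 was left out (adjusted p = 0.068 to 0.150), and within the limits of the study on cells (log2 fold change 2.65, adjusted p = 0.200). Within those limits the groups overlapped, with Il1rl1 at 17.0, 3.91 and 2.16 CPM in the WT mice and at 74.7, 98.7 and 5.88 CPM in the Aromhum mice.

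**Figure D2:**
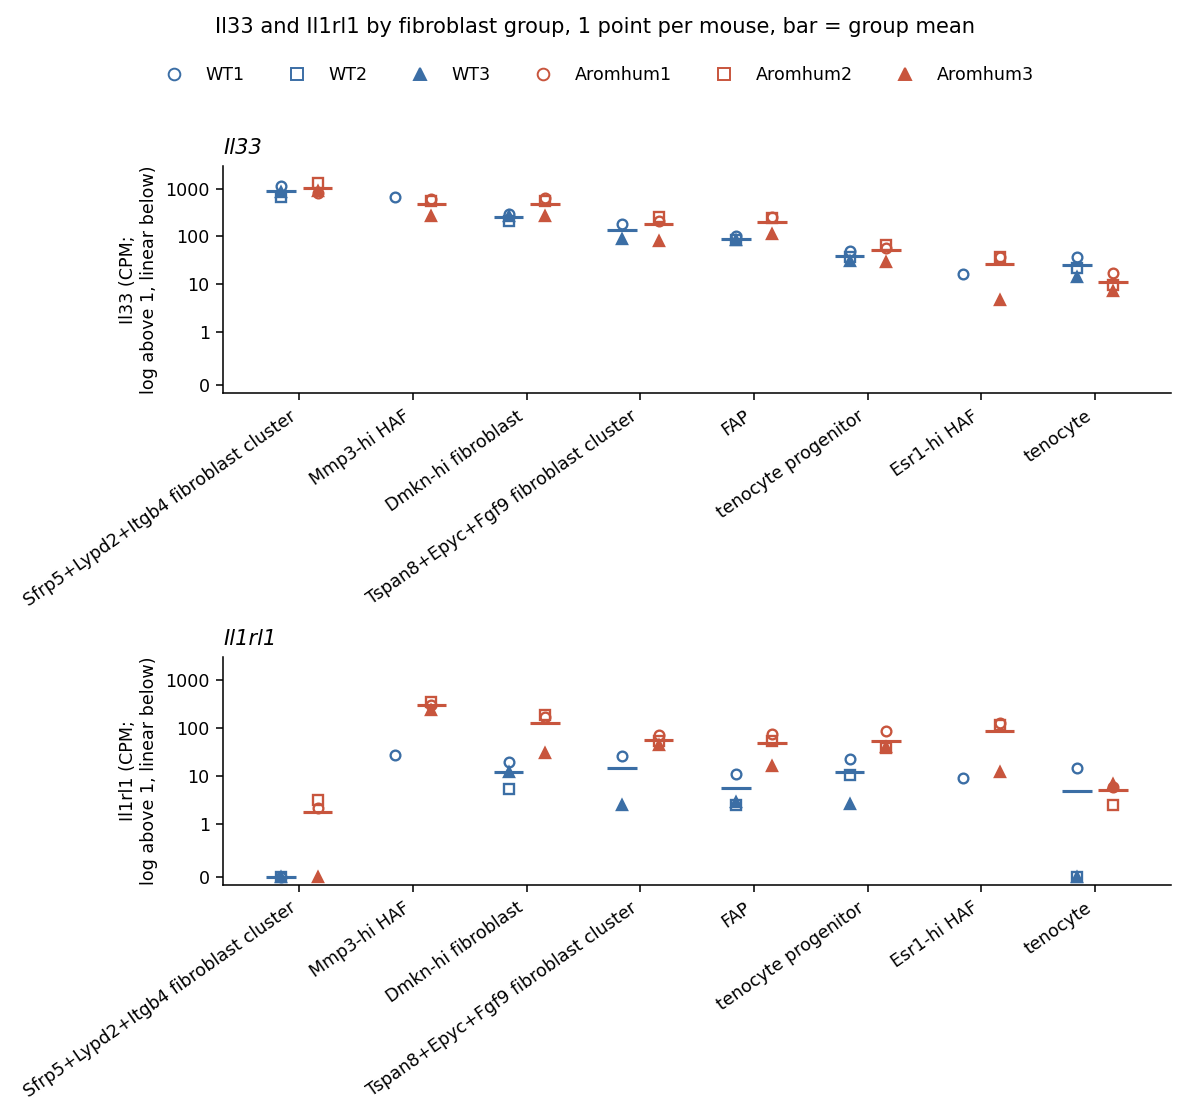
Il33 (upper panel) and Il1rl1 (lower panel) in CPM for 8 fibroblast groups, with 1 point per mouse with at least 10 cells and a bar at the genotype mean. The axis is logarithmic above 1 CPM and linear below, and Il33 is highest in the Sfrp5+Lypd2+Itgb4 cluster, which has almost no Il1rl1.

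Fibroblast groups differed in which of the genes they held. FAP-like cells resemble fibro-adipogenic progenitors, the resident fibroblast progenitors of muscle. In them Il33 was at 104, 84.7 and 83.0 CPM in the WT mice and at 259, 237 and 114 CPM in the Aromhum mice. The groups did not overlap, and Il33 rose by a log2 fold change of 1.19 (SE 0.28, edgeR adjusted p = 0.0422). Il1rl1 in FAP-like cells was at 11.1, 2.40 and 2.79 CPM in WT and at 74.0, 53.9 and 16.1 CPM in Aromhum mice. It also rose without overlap, by a log2 fold change of 3.13 (SE 0.65, edgeR adjusted p = 0.0288), where 4.28% of 11679 genes were called. The Il33 call was lost without any of the 5 mice other than Aromhum3 (edgeR adjusted p = 0.0817 to 0.154), and the Il1rl1 call without Aromhum1, Aromhum2, WT2 or WT3 (adjusted p = 0.0927 to 0.116). Within the limits of the study on cells the adjusted p was 0.0503 for Il33 and 0.354 for Il1rl1. Of the clusters in this group, that of 4358 cells had Il33 at 107, 75.8 and 76.6 CPM in WT and at 311, 255 and 120 CPM in Aromhum mice. Il33 overlapped in the cluster of 1715 cells (36.4, 54.7 and 56.1 against 90.5, 72.3 and 55.0 CPM). It also overlapped in that of 398 cells (350, 402 and 188 against 282, 575 and 300 CPM). Il1rl1 did not overlap in these clusters, but it rested on few UMIs in the 2 smaller ones. In the cluster of 1715 cells it had 0, 2 and 0 UMIs in WT and 7, 14 and 17 in Aromhum mice. In that of 398 cells the counts were 1, 1 and 0 against 1, 4 and 5. Another cluster had 190 of its 214 cells from Aromhum1.

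Dmkn-hi fibroblasts, named for the gene of the secreted protein dermokine, had Il33 at 298, 213 and 267 CPM in the WT mice and at 627, 538 and 262 CPM in the Aromhum mice. Aromhum3 lay within the WT range (log2 fold change 0.88, SE 0.33, edgeR adjusted p = 0.215). The study describes its Dmkn cluster as small and almost even between genotypes. This group, of 4013 cells, is not the same set. Their Il1rl1 was at 19.3, 5.24 and 11.8 CPM in WT and at 172, 182 and 30.1 CPM in Aromhum mice. The groups did not overlap, and the log2 fold change of 3.29 (SE 0.71) had an edgeR adjusted p of 0.0646, where 1.11% of 10882 genes were called. With each mouse left out in turn, the edgeR adjusted p ran from 0.00278 to 0.575 for Il33 and from 3.23e-05 to 0.247 for Il1rl1. Of the 3 clusters in this group, 1 cluster of 1380 cells held 413, 954 and 10 cells of the Aromhum mice and 3 cells of the WT mice, with Il33 at 879, 628 and 761 CPM in the Aromhum mice. In the cluster of 2092 cells shared by all mice, Il33 was at 300.2, 212 and 262 CPM in WT and at 362, 354 and 252 CPM in Aromhum mice. Il33 overlapped between genotypes in this shared cluster. It also overlapped in the third cluster, of 541 cells (164, 222 and 303 CPM in WT and 358, 421 and 223 CPM in Aromhum mice). Il1rl1 was highest in the cluster of 1380 cells as well, but it did not overlap between genotypes in the shared cluster. It was at 269, 242 and 152 CPM in the Aromhum mice in the cluster of 1380 cells, and at 20.6, 5.89 and 12.9 CPM in WT and 84.5, 97.0 and 29.1 CPM in Aromhum mice in the shared cluster. Tenocyte progenitor-like cells had Il33 at 50.2, 36.8 and 30.2 CPM in WT and at 56.2, 67.8 and 30.0 CPM in Aromhum mice, which overlapped (log2 fold change 0.27, SE 0.28, edgeR adjusted p = 0.765). Their Il1rl1 was at 22.5, 10.5 and 2.60 CPM in WT and at 84.2, 38.1 and 40.6 CPM in Aromhum mice. These did not overlap either, but the log2 fold change of 2.05 (SE 0.50) did not pass in edgeR (adjusted p = 0.113), where 0.385% of 10135 genes were called. With each mouse left out in turn, the edgeR adjusted p for Il1rl1 ran from 0.00533 to 0.395.

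Mmp3-hi and Esr1-hi cells are named for the genes of stromelysin-1 and of estrogen receptor alpha. The study calls its own clusters with these markers hernia-associated fibroblasts (HAFs). The groups here were clustered anew and need not hold the same cells. In WT mice both groups had too few cells for a test. Mmp3-hi cells were 0.460%, 0.010% and 0.080% of the cells of the WT mice and 6.05%, 9.60% and 0.142% of those of the Aromhum mice, so that Aromhum3 was near WT. Their Il33 was at 653 CPM in the 43 cells of WT1 and at 613, 542 and 263 CPM in the Aromhum mice. Their Il1rl1 was at 27.1 CPM in WT1 and at 305, 346 and 240 CPM in the Aromhum mice. The Aromhum3 value rests on 12 cells. The genotypes lay in different clusters of this group. All 43 cells of WT1 were in a cluster of 925 cells, where Il33 was at 872 and 735 CPM and Il1rl1 at 119.9 and 120.2 CPM in Aromhum1 and Aromhum2. In this cluster Il33 of both mice was thus above that of WT1, the opposite of the order over the group, while Aromhum3, with 10 cells, lay below WT1 for Il33 (422 CPM) and above it for Il1rl1 (259 CPM). The other cluster, of 1071 cells, had 0 WT cells and held Il1rl1 at 379 and 460 CPM in Aromhum1 and Aromhum2. Esr1-hi cells were 0.577%, 0.094% and 0.107% of the cells in WT and 12.8%, 14.1% and 6.80% in Aromhum mice. Their Il33 was at 16.6 CPM and their Il1rl1 at 9.05 CPM in the 54 cells of WT1. Their Il33 was at 36.8, 36.6 and 4.83 CPM in the Aromhum mice, and their Il1rl1 was at 128, 117 and 12.2 CPM, both lowest in Aromhum3. The order for Il33 differed between the clusters of this group. In the cluster of 2536 cells it was at 2.47 CPM in WT1 and at 45.8, 44.9 and 6.40 CPM in the Aromhum mice, and in that of 1386 cells it was at 38.8 CPM in WT1, from 28 cells, and at 11.9, 18.2 and 3.23 CPM in the Aromhum mice. Of all Il1rl1 UMIs of a mouse, Mmp3-hi cells held 1.55%, 0% and 1.27% in WT and 29.2%, 38.2% and 3.61% in Aromhum mice, and Esr1-hi cells 0.846%, 0% and 0% in WT and 32.8%, 27.2% and 13.6% in Aromhum mice. In Aromhum3 FAP-like cells held more than either, 23.6%.

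The highest mean Il33 level among the fibroblast groups lay in a cluster of 480 cells led by Sfrp5, Lypd2 and Itgb4. Pdgfra was seen in 8.54% of these cells and Dcn in 100%, so that the cluster is called by its leading genes. Its Il33 was at 1132, 652 and 858 CPM in WT and at 803, 1302 and 908 CPM in Aromhum mice. The groups overlapped (log2 fold change 0.21, SE 0.21, edgeR adjusted p = 0.812). Il33 was above that of Dmkn-hi cells in 6 of 6 mice (log2 difference 1.44 ± 0.57, SD; exact sign-flip p = 0.03125, adjusted p = 0.125). Il1rl1 was found as 2 UMIs in these cells. The cluster is counted among the fibroblast-like cells, and it held 9.94%, 11.6% and 25.04% of all Il33 UMIs of the WT mice and 1.92%, 1.93% and 9.33% of those of the Aromhum mice.

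**Figure D3:**
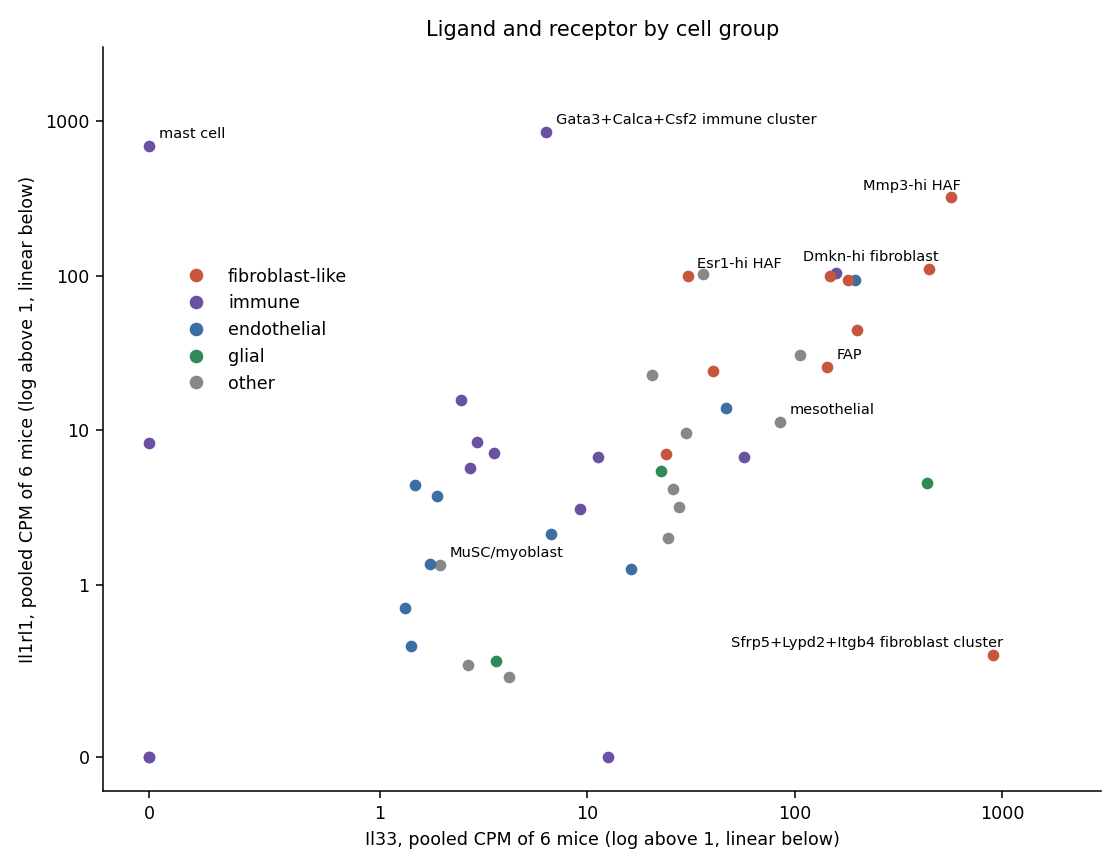
Pooled CPM of the 6 mice for Il33 (horizontal axis) and Il1rl1 (vertical axis), 1 point per cell group with at least 20 cells, coloured by broad type. Both axes are logarithmic above 1 CPM and linear below, and mast-like cells and the Gata3+Calca+Csf2 cluster sit high for Il1rl1 with little Il33, while Mmp3-hi cells are high for both.

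Receptor cells without the ligand were found among immune-like cells. A cluster of 105 cells led by Gata3, Calca and Csf2 had Gata3 in 82.9%, Rora in 92.4%, Il7r in 81.9% and Cd3e, a T cell gene, in 12.4% of cells, and it passed no name. Its Il1rl1 was at 578 CPM in WT1 and 505 CPM in WT2, and at 777, 1455 and 1187 CPM in the Aromhum mice, while WT3 had fewer than 10 of these cells. Il1rl1 was seen in 82 of the 105 cells (78.1%, exact 95% binomial interval 69.0 to 85.6%), and Il33 in 2. Of 21 mast-like cells, 13 had Il1rl1 (61.9%, interval 38.4 to 81.9%) and 0 had Il33. Dendritic-like cells had Il1rl1 in 12.6% of 826 cells at a median of 8586.5 UMIs, and T cell-like cells in 3 of 194 cells (1.55%, interval 0.320 to 4.45%) at a median of 2587 UMIs. In muscle stem cells and myoblasts, in which neither gene is expected, 0.834% of cells had Il33 and 0.601% had Il1rl1 at a median of 4247 UMIs. In myonuclei, a further background, the shares were 3.62% for Il33 and 1.07% for Il1rl1 at a median of 3172.5 UMIs. The interval of the T cell-like share covers the Il1rl1 share of both backgrounds. Thinned to 1000 UMIs per cell, the Il1rl1 share was 50.5% in the Gata3+Calca+Csf2 cluster and 1.45% in dendritic-like cells. Intervals cover counting error only.

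The cell types that held the UMIs of each gene were then set side by side by genotype. Fibroblast-like cells held 72.5%, 47.5% and 60.8% of the Il1rl1 UMIs of the WT mice and 89.7%, 92.0% and 81.5% of those of the Aromhum mice. Immune-like cells held 15.7%, 38.4% and 12.7% in WT and 3.20%, 2.68% and 8.07% in Aromhum mice. Neither set of shares overlapped between genotypes, and both differences had an exact permutation p of 0.1, the lowest that 3 against 3 mice allow. Within the limits of the study on cells both sets overlapped, but few UMIs were left in some mice. Fibroblast-like cells had 194, 14 and 6 Il1rl1 UMIs in WT and 564, 1735 and 20 in Aromhum mice. Immune-like cells had 14, 9 and 1 in WT and 56, 54 and 24 in Aromhum mice. The fibroblast-like share was then 87.0%, 56.0% and 60.0% in WT and 81.5%, 93.9% and 35.7% in Aromhum mice (exact permutation p = 0.9), and the immune-like share was 6.28%, 36.0% and 10.0% in WT and 8.09%, 2.92% and 42.9% in Aromhum mice (exact permutation p = 1.0). Cells that passed no name held a further 7.05%, 10.6% and 24.1% of the WT UMIs and 1.71 to 3.86% of the Aromhum UMIs with all cells kept. Among them was a cluster led by Tnmd, Fmod and Wif1, with fibroblast markers at 65399 to 80939 CPM. For Il33 the fibroblast-like share was 87.9%, 66.7% and 64.5% in WT and 88.7%, 89.6% and 72.0% in Aromhum mice (exact permutation p = 0.2). The Il1rl1 level of immune-like cells themselves was at 29.3, 47.9 and 32.8 CPM in the Aromhum mice, which overlapped with WT (log2 fold change 0.51, SE 0.43, edgeR adjusted p = 0.820). Of the 967 Il1rl1 UMIs of immune-like cells, 448 lay in a cluster of 291 cells led by Dcn, Ren1 and Col1a2, with summed fibroblast markers at 33493 to 44640 CPM. These were 226 of 344 UMIs in Aromhum1, 191 of 332 in Aromhum2 and 5 of 94 in Aromhum3, and without the cluster the log2 fold change was -0.00062. In immune-like cells edgeR called 0 of 9785 genes (0%), with 789 at an unadjusted p under 0.05, and DESeq2 called 116.

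**Figure D4:**
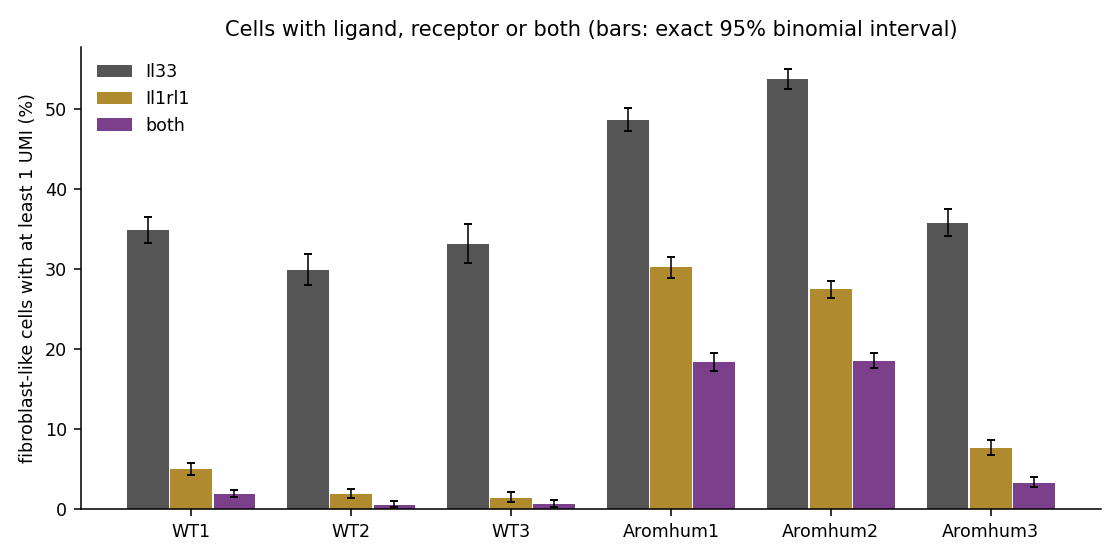
Percent of fibroblast-like cells with at least 1 UMI of Il33, of Il1rl1 or of both, for each of the 6 mice. Error bars are exact 95% binomial intervals, and Aromhum1 and Aromhum2 stand above the other 4 mice for all 3 shares.

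Ligand and receptor were seen in the same fibroblast-like cells. Il33 was seen in 34.9%, 29.9% and 33.2% of fibroblast-like cells of the WT mice and in 48.7%, 53.8% and 35.8% of the Aromhum mice. Il1rl1 was seen in 5.02%, 1.93% and 1.38% in WT and in 30.3%, 27.5% and 7.64% in Aromhum mice. Both were seen in 1.91%, 0.583% and 0.657% in WT and in 18.4%, 18.6% and 3.33% in Aromhum mice. No WT mouse reached the Aromhum range in any of these 3 shares. Median depth was higher in the Aromhum cells (10734 against 9085 UMIs), so each cell was thinned to 1000 UMIs, which kept all cells. Thinned, Il1rl1 was in 1.204%, 0.314% and 0.263% of WT and in 9.11%, 9.39% and 1.45% of Aromhum cells, and Il33 in 10.3%, 7.17% and 7.94% against 18.5%, 20.7% and 8.72%. In thinned cells Aromhum3 lay within the WT range for Il33 and above it for Il1rl1. Within a mouse, the share of cells with both genes was set beside the product of the separate shares. In Mmp3-hi cells both were in 45.0% and 40.5% of the cells of Aromhum1 and Aromhum2, where the products are 45.2% and 40.1%. In FAP-like cells both were in 0.769%, 0.517% and 0.285% of WT and in 8.41%, 7.61% and 2.65% of Aromhum cells. The products are 0.731%, 0.360% and 0.383% in WT and 6.82%, 4.85% and 2.29% in Aromhum cells. These joint shares and products are of cells before thinning, and FAP-like cells pool clusters of unlike Il33 level. The part of depth and of clusters was not tested, and no link within a cell is read from these values.

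To set cell makeup beside the level within a type, each mouse was given its own share of UMIs per cell type and the WT level of each type. That level was pooled over the cells of all WT mice, so that a mouse with more cells weighed more. Il33 in the Aromhum mice then came to 112, 137 and 74.1 CPM, against 182, 191 and 73.6 CPM measured and a WT mean of 56.98 ± 22.7 CPM (SD, n = 3). Il1rl1 came to 8.56, 9.52 and 5.81 CPM, against 98.6, 111 and 12.6 CPM measured and a WT mean of 4.94 ± 5.17 CPM (SD, n = 3). At WT levels, Il33 lay between the WT mean and the measured value in Aromhum1 and Aromhum2. In Aromhum3 it was close to the measured value, which itself lay within the measured WT range of 42.5 to 83.2 CPM. The same calculation gave 73.8 CPM for Il33 in WT1, against 83.2 CPM measured. Il1rl1 lay closer to the WT mean than to the measured value in each Aromhum mouse. Some types held clusters that were almost all Aromhum cells, so that the level of a type also contains makeup. WT levels of Mmp3-hi and Esr1-hi cells rest on few cells, most of them of WT1. Mmp3-hi cells were 43, 1 and 6 and Esr1-hi cells 54, 9 and 8 in WT1, WT2 and WT3. At the pooled Aromhum level of each type the picture for Il1rl1 was another, with 39.1, 23.2 and 17.7 CPM at the makeup of the WT mice and 84.8, 97.5 and 45.5 CPM at that of the Aromhum mice. Il33 came to 118.5, 76.5 and 71.3 CPM and to 156, 182 and 115 CPM. The Il1rl1 values thus depended on which levels were used, and the part of makeup in the difference of either gene was not tested.

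In mesothelial-like cells, which line the abdominal cavity, the mean Il33 level was lower in Aromhum than in WT mice. It was at 140, 106 and 142 CPM in the WT mice and at 70.1, 61.8 and 108 CPM in the Aromhum mice. The groups overlapped by Aromhum3 against WT2 (log2 fold change -0.61, SE 0.22, edgeR adjusted p = 0.175), where 0.206% of 11663 genes were called. Without Aromhum3 the log2 fold change was -0.88 (edgeR adjusted p = 0.0126), while without any other mouse the adjusted p was 0.244 to 0.435. Il1rl1 was at 5.40, 0 and 0 CPM in WT and at 14.8, 18.8 and 3.18 CPM in Aromhum mice, so that Aromhum3 lay below WT1 (log2 fold change 2.88, SE 1.10, edgeR adjusted p = 0.196). The fibroblast-like minus mesothelial-like difference in the genotype effect on Il33 was 1.35 (SE 0.53, edgeR adjusted p = 0.203), and 2.04 without Aromhum3 (adjusted p = 3.05e-04, against up to 0.514 with another mouse left out).

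Endothelial-like and smooth muscle-like cells had few UMIs of either gene. In endothelial-like cells Il33 was at 4.76, 5.76 and 4.07 CPM in WT and at 43.1, 27.2 and 13.2 CPM in Aromhum mice. It rose without overlap (log2 fold change 2.43, SE 0.38, edgeR adjusted p = 0.0041), where 21.2% of 12565 genes were called. Il1rl1 was at 1.17, 0.171 and 0.0958 CPM in WT, from 15, 3 and 2 UMIs, and at 20.7, 14.96 and 1.69 CPM in Aromhum mice. It rose as well (log2 fold change 4.79, SE 1.00, edgeR adjusted p = 0.0124), with an adjusted p of 0.0544 without WT2 and 0.0502 without Aromhum1. Of the 1155 Il33 UMIs, 635 lay in a cluster of 201 cells led by the collagen genes Col1a2 and Col1a1 and by Mfap5. Without that cluster the log2 fold changes were 1.14 for Il33 and 3.82 for Il1rl1 (edgeR adjusted p = 0.0120 and 0.0088). Venular endothelial-like cells had Il33 at 8.40, 33.7 and 17.8 CPM in WT and at 12.9, 16.2 and 15.9 CPM in Aromhum mice. They made up a mean of 4.15% of the cells of WT and 6.34% of those of Aromhum mice. Capillary endothelial-like cells made up 23.1% and 7.43%. Summed fibroblast markers were at 18174 CPM in endothelial-like cells with Il33 and at 1033 CPM in those without. Over all endothelial-like cells these markers were at 627 to 779 CPM in WT and at 2660 to 5124 CPM in Aromhum mice, and 9 of 10 genes of the dissociation response were called lower. Muscle stem cells and myoblasts served as a background for both genes. Their Il33 was at 2.31, 0.504 and 1.90 CPM in WT and at 5.22, 2.92 and 0.518 CPM in Aromhum mice. Their Il1rl1 was at 0.462, 0 and 0 CPM in WT and at 6.96, 2.92 and 0 CPM in Aromhum mice. Myonuclei were a further background. They had Il33 at 9.85, 8.11 and 5.41 CPM in WT and at 30.3, 102 and 4.87 CPM in Aromhum mice. They had Il1rl1 at 1.51, 1.43 and 0 CPM in WT and at 11.4, 9.35 and 0 CPM in Aromhum mice. The part of the subtypes, the markers, the dissociation genes and the background in the endothelial-like result was not tested. In smooth muscle-like cells and pericytes Il33 was at 1.59, 6.15 and 12.1 CPM in WT and at 42.6, 63.9 and 31.3 CPM in Aromhum mice (log2 fold change 2.66, SE 0.43, edgeR adjusted p = 0.0217), where 2.52% of 9308 genes were called. Without Scrublet doublets the adjusted p was 0.0514, and it was 0.0542 to 0.0975 without WT1, WT2, Aromhum1 or Aromhum2. This rests on 283 UMIs in 61 cells, in which the fibroblast markers were at 33851 CPM against 4962 CPM in the other cells. Over all smooth muscle-like cells and pericytes they were at 4206 to 6126 CPM in WT and at 6581 to 9266 CPM in Aromhum mice. The part of these markers and of the background in the result was not tested.

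Genes of the pathway were also counted in fibroblast-like cells, where 13.5% of all 13919 genes tested were called. Il1rl1 was the 1 gene called higher among 6 receptors of the IL-1 receptor family tested, while over all genes 7.18% were called higher and 6.35% lower. Il1rap, the co-receptor, was at 7.49, 7.33 and 6.13 CPM in WT and at 6.61, 9.29 and 5.22 CPM in Aromhum mice (log2 fold change 0.00, edgeR adjusted p = 0.998). Of 17 signalling genes, 0 were called higher and 1 lower, the adaptor gene Myd88 (log2 fold change -0.87, edgeR adjusted p = 0.0246). Of 7 genes of proteases that act on IL-33, edgeR called 0, with 2 at an unadjusted p under 0.05, beside 4611 of all 13919 genes tested. Of 5 ligands of the family, Il1b was called higher, at 0.518 to 2.96 CPM in the Aromhum mice. The calls of Myd88 and Il1b are those of the fit with all 6 mice. As few as 3 genes were called in fibroblast-like cells with a mouse left out, and 1 within the limits of the study on cells.

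Of 14 genes of type 2 responses, 3 rose and 1 fell in fibroblast-like cells. These calls come from the fit with all 6 mice and all cells. With a mouse left out, as few as 3 of all genes were called in these cells, and 1 within the limits of the study on cells. Areg, the gene of the growth factor amphiregulin, was at 1.40, 1.29 and 1.03 CPM in WT and at 19.9, 13.2 and 3.39 CPM in Aromhum mice (log2 fold change 3.27, SE 0.66, edgeR adjusted p = 0.0296). Postn, the gene of the matrix protein periostin, was at 212, 367 and 222 CPM in WT and at 774, 658 and 622 CPM in Aromhum mice (log2 fold change 1.36, SE 0.22, edgeR adjusted p = 0.0206). Ccl17, a chemokine gene, rose from near 0 to under 1 CPM, and Ccl11, the gene of eotaxin, fell (log2 fold change -0.59, edgeR adjusted p = 0.0425). In FAP-like cells Areg, Postn and Il4ra, the gene of the IL-4 receptor, were called higher among 10 tested, where 2.48% of all genes were called higher and 1.80% lower. The median log2 fold change of the 14 genes was 0.32, beside -0.0041 over all genes tested. Fos and 4 more of 10 genes of the dissociation response were lower in the fibroblast-like cells of Aromhum mice, and summed immune markers in these cells were at 15.2 to 15.8 CPM in WT and at 25.7 to 61.3 CPM in Aromhum mice. Their part in the results was not tested.

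Over 204 profiles of 43 cell groups in single mice, the genes with a pattern most like that of Il33 were Lbp, Igfbp6, Tmeff2, Xpnpep2 and Efemp1 (Pearson r of log2 CPM of 0.81 to 0.83, out of 12899 genes). For Il1rl1 they were Ereg, Mmp3, Emb, Ptpn5 and Gng4 (r of 0.63 to 0.70). Between Il33 and Il1rl1 r was 0.39. Profiles from a mouse share their library, and these values are descriptions only.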

How the data were processed

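The authors deposited raw UMI counts for 16494 genes and 63647 barcodes, each named for its mouse. Cell Ranger 3.0.2 and mm10 stand in the submitters' processing notes. Here, cells were clustered with scanpy 1.11.5 and leidenalg 0.10.2 (2000 variable genes, 30 components, 20 neighbours, resolution 0.8), leaving out Il33 and Il1rl1. A name needed 3 markers seen, and 5239 cells stayed unnamed. Scrublet doublets (0 to 2.92% of cells per mouse, with 0% in WT3) were kept, and were left out as an alternative. UMI counts were summed per mouse and type, and types with 20 or more cells in every mouse were tested with edgeR 4.0.16 (quasi-likelihood, TMM, its filter on low counts, Benjamini-Hochberg adjustment over all genes, threshold 0.05). Alternatives used DESeq2 1.42.0, limma 3.58.1, other limits on cells, other clusterings and each mouse left out. The tests were checked on simulated data. Genes named were Il33 and Il1rl1, genes of the pathway lists, and the 5 genes most similar to each. The members and lists were chosen with earlier results of these data known.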

Additional observations from a re-analysis of the deposited data

Results flagged for a closer look

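The genotype effect on Il33 differed between fibroblast-like and endothelial-like cells, which a test of the difference itself picked out. The fibroblast-like minus endothelial-like difference in log2 fold change was -1.59 (SE 0.27, edgeR adjusted p = 0.0084). Without the endothelial-like cluster led by Col1a2, Col1a1 and Mfap5, left out after the data were seen, it was -0.43 (adjusted p = 0.567).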

How the results depend on the processing

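With each mouse left out in turn, the log2 fold change over all cells ran from 1.19 to 1.84 for Il33 and from 3.48 to 5.31 for Il1rl1. In fibroblast-like cells it ran from 0.58 to 1.17 and from 3.36 to 4.96, in FAP-like cells from 0.95 to 1.499 and from 2.61 to 4.27, and in mesothelial-like cells from -0.88 to -0.47 and from 2.02 to 9.43. It ran from 4.13 to 6.38 for Il1rl1 in endothelial-like cells and from 2.23 to 3.43 for Il33 in smooth muscle-like cells. Genes called ran from 0 to 4819 over all cells, from 3 to 3974 in fibroblast-like and from 46 to 1049 in FAP-like cells, the highest each time without Aromhum3. The fibroblast-like minus mesothelial-like difference ran from 0.93 to 2.04 for Il33 and from -6.35 to 1.12 for Il1rl1, where the lowest value leaves out WT1 and with it all WT UMIs in mesothelial-like cells.

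DESeq2 gave adjusted p of 0.0066 for Il33 (1.42) and 0.0037 for Il1rl1 (3.94) over all cells, and called 2849 genes in fibroblast-like cells. Without the highest 5% of Scrublet scores, chosen after seeing the data, Il1rl1 over all cells was 4.03. With no filter on low counts, Il1rl1 in fibroblast-like cells was 3.73 (edgeR adjusted p = 0.0532). Within the limits of the study on cells, which leave 1532 to 4932 cells per mouse, Il1rl1 was 2.65 in fibroblast-like cells and 1.56 in FAP-like cells, Il33 was 0.87 in FAP-like cells, and edgeR called 0 genes over all cells, 1 in fibroblast-like and 31 in FAP-like cells. At most 5% mitochondrial UMIs left 2397 genes called over all cells, and equal weight of 6 fibroblast subtypes, without Mmp3-hi and Esr1-hi cells and with limma, 157 in fibroblast-like cells. Without Scrublet doublets Il33 in smooth muscle-like cells was 2.33. Without the endothelial-like cluster with fibroblast genes the fibroblast-like minus endothelial-like difference for Il33 was -0.43. The cause of these changes was not tested.

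Some differences changed sign. Il33 in glial-like cells ran from -0.088 to 0.35 with a mouse left out and was -0.040 without the highest Scrublet scores. In lymphatic endothelial-like cells it ran from -0.049 to 0.93 (-0.03 without WT3) and was -0.16 without those scores. In the Sfrp5+Lypd2+Itgb4 cluster it ran from -0.012 to 0.42, and in venular endothelial-like cells from -0.88 to 0.059. Il1rl1 in immune-like cells was -0.00062 without the cluster that also carries fibroblast genes. The log2 difference of fibroblast-like over glial-like cells for Il33 ran from -0.16 to 0.27 with a mouse left out (-0.03 without WT1, -0.10 without Aromhum2), and was 3.39 within the limits of the study on cells (5 mice, adjusted p = 0.075). That of fibroblast-like over immune-like cells for Il1rl1 ran from -0.72 to 0.20, and was 0.073 on log2(CPM + 10) and 0.12 within the limits of the study on cells. Within those limits the Aromhum minus WT difference in the immune-like share of Il1rl1 UMIs was 0.53 percentage points, against -17.6 with all cells, the fibroblast-like difference was 2.72 against 27.5, and that in the mesothelial-like share of Il33 UMIs was -0.47. With all cells kept the latter was 2.26, and it ran from -1.97 to 4.60 with a mouse left out. The Il1rl1 shares within the limits of the study rest on few UMIs, with 9 and 1 in immune-like cells of WT2 and WT3.

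With the replicate number as a block, Il1rl1 over all cells was 3.99 (edgeR adjusted p = 0.0182) and 1044 genes were called in FAP-like cells. With the genotype mean of each gene subtracted, the deviations of same-numbered WT and Aromhum mice correlated at 0.25, -0.02 and 0.30 over all cells. These values do not settle whether the numbers mark the processing dates. The numbers were not taken as pairs because no date is tied to a mouse number. Several types, mesothelial-like cells with 8 cells of WT3 among them, had too few cells in a mouse for the test within the limits of the study.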

Other observations

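Il33 was also measured in blood vessel subtypes. In venular endothelial-like cells Il33 was at 8.40, 33.7 and 17.8 CPM in the WT mice and at 12.9, 16.2 and 15.9 CPM in the Aromhum mice. The Aromhum values lay within the WT range (log2 fold change -0.49, edgeR adjusted p = 0.528). In capillary endothelial-like cells Il33 was at 0.615, 0.959 and 0.970 CPM in WT and at 3.71, 2.98 and 2.12 CPM in Aromhum mice. These did not overlap, and the log2 fold change of 1.62 did not pass in edgeR (adjusted p = 0.067), where 1.97% of 10670 genes were called. In muscle stem cells and myoblasts, a background, Il33 was at 2.31, 0.504 and 1.90 CPM in WT and at 5.22, 2.92 and 0.518 CPM in Aromhum mice. Capillary cells had Il33 in 0.573% of 8383 cells at a median of 3092 UMIs, below the 0.834% of that background at a median of 4247 UMIs, so that no expression is read from these values. In lymphatic endothelial-like cells Il33 was at 44.1, 16.6 and 12.1 CPM in WT and at 24.3, 41.8 and 21.1 CPM in Aromhum mice, which overlapped.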
